A study of Drosophila melanogaster with 6 samples.

Results

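The chorion is the outer layer of the insect eggshell. In *Drosophila* it is laid down by the follicle cells, the epithelium around each egg chamber, late in oogenesis and after the inner vitelline membrane. The 9 genes described here, *Cp36*, *Cp38*, *Cp7Fa*, *Cp7Fb*, *Cp7Fc*, *Cp18*, *Cp15*, *Cp19* and *Cp16*, encode chorion proteins and were chosen by name. All 9 are among the 12925 genes of the deposited matrix. They lie in 2 compact loci, which follicle cells amplify by repeated origin firing before the genes are transcribed. *Cp36* and *Cp38* of the X locus are known as genes of early choriogenesis. The 3L genes are used later, with *Cp15* and *Cp18* among the last.

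Single-nucleus RNA was sequenced from whole female flies without heads in 3 conditions. The starved groups were day 2 and day 5 on a medium without energy sources, and the reference was fed flies, with 2 libraries (reactions) for each. All flies carried PromE-gal4, a driver for oenocytes, and Tub-gal80ts, which blocks it until flies are moved to 29 °C. The labels name no transgene for the driver to act on, and their time at 29 °C is ambiguous, either 5 or 7 days in each sample. They also give rearing at 18 °C and 48 hours of collection and holding for every sample. The study's methods move 2-day-old adults to 29 °C. Flies were pooled for each condition, and the sources do not say whether its reactions drew on different animals, so p-values measure only the spread between libraries, which may be technical.

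In the BDGP6 assembly, the X locus spans X:8470888-8483311 (12424 bases) with 5 members on the plus strand in the order *Cp7Fa*, *Cp7Fb*, *Cp7Fc*, *Cp36* and *Cp38*. The 3L locus spans 3L:8726791-8732599 (5809 bases) with *Cp18*, *Cp15*, *Cp19* and *Cp16*, also on the plus strand. The 5 X members lie within *CG33223*, a longer gene on the minus strand, and share 0 bases with its exons. Whether the counting used strand is not given in the sources used here, so reads from the X members and from *CG33223* introns cannot be told apart by position alone. *CG33223* itself had 1.88 and 1.89 UMIs per 10000 in fed nuclei of cluster 19, where *Cp36*, *Cp38* and *Cp7Fa* were highest. No gene overlaps a 3L member.

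The libraries held 3776 to 10091 nuclei and 7562535 to 22940643 UMIs (unique transcript molecules), with medians of 1074 to 1329 UMIs per nucleus. Of 43027 nuclei, 358 (0.832%) had a barcode sequence also found in another library. The deposited annotation placed the nuclei in 26 clusters. Clusters 4, 5, 14, 19, 20 and 24 were taken as the cells that make chorion RNA and all others as a reading of free RNA, RNA released from broken cells that enters every droplet. As the values below show, this division held for clusters 19 and, through 3 nuclei, 24. It did not hold for clusters 4, 5, 14 and 20. Nor did it hold for cluster 10, taken as free RNA, which lay above the rest for *Cp15* in every library.

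Chorion RNA was present almost entirely in fed flies. The 9 members together had 88759 and 71193 UMIs in the fed libraries, 707 and 838 at day 2, and 370 and 354 at day 5. Fed flies thus held 98.6% of all chorion UMIs in the series. Chorion transcripts made up 0.387% and 0.334% of all UMIs in the fed libraries. Per 10000 UMIs of a library, the 9 genes summed to 38.7 and 33.4 in fed flies, 0.440 and 0.510 at day 2, and 0.489 and 0.458 at day 5. Day 2 was 76.0-fold lower than fed (95% counting interval 72.3 to 80.0) and day 5 76.4-fold lower (71.0 to 82.3). Counting intervals cover counting error only. In a sum over all nuclei, fewer cells of a type and less RNA per cell cannot be told apart.

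*Cp15* was the most abundant member by UMIs. Its level over all nuclei was 16.2 and 11.7 UMIs per 10000 in fed flies, 0.260 and 0.321 at day 2, and 0.284 and 0.268 at day 5. *Cp36* had 6.66 and 6.73 UMIs per 10000 in fed flies, 0.00872 and 0.0146 at day 2, and 0.00264 and 0.0129 at day 5. In both genes the starved libraries lay far below both fed libraries, with no overlap, whereas the 2 starved conditions overlapped each other. The kit counts transcript ends, so these levels were not divided by gene length.

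The size of the loss differed between members. Over all nuclei, *Cp36* was 572-fold lower at day 2 than in fed flies (interval 417 to 809) and 853-fold lower at day 5 (488 to 1651). *Cp19* was 311-fold lower at day 2 (240 to 409) and 223-fold lower at day 5 (163 to 315), and *Cp16* was 208-fold (145 to 308) and 226-fold lower (132 to 424). The remaining members lost less. *Cp18* was 43.6-fold lower at day 2 (37.6 to 50.9) and 26.5-fold lower at day 5 (22.4 to 31.6). *Cp15* was 48.2-fold lower at day 2 (45.2 to 51.4) and 50.9-fold lower at day 5 (46.2 to 56.1).

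The remaining X members were between these extremes. *Cp38* was 71.9-fold lower at day 2 (61.2 to 85.0) and 137-fold lower at day 5 (99.5 to 195). *Cp7Fa*, *Cp7Fb* and *Cp7Fc* were 54.8-fold, 44.8-fold and 61.0-fold lower at day 2. At day 5 they were 42.5-fold, 48.5-fold and 86.1-fold lower.

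Libraries were compared with limma on log2 UMIs per 10000, fitted over all tested genes. A change was called where the Benjamini-Hochberg adjusted p was under 0.05. Over all nuclei, all 9 members fell at day 2, where 9.98% of 11698 tested genes fell, and all 9 fell at day 5, where 33.5% did. The median log2 difference of the members was -5.88 at day 2 and -6.44 at day 5, against 0.16 and -0.13 over all tested genes. For *Cp36* the log2 difference was -9.17 (SE 0.60, adjusted p = 0.00017) at day 2 and -9.96 (SE 0.60, adjusted p = 3.5e-05) at day 5. For *Cp15* it was -5.57 (SE 0.16, adjusted p = 9.1e-06) and -5.64 (SE 0.16, adjusted p = 2.6e-06). Over all nuclei 8 of the members reached the filter on low values in starved libraries alone, and *Cp16* reached it in 1 starved library and needed a fed one.

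From day 2 to day 5 the sum did not move, but 2 members did. *Cp38* fell further, by 0.90 on the log2 scale (SE 0.10, adjusted p = 0.0004), with 0.0238 and 0.0246 UMIs per 10000 at day 5 against 0.0492 and 0.0432 at day 2. *Cp18* rose by 0.72 (SE 0.13, adjusted p = 0.0028), with 0.0939 and 0.0853 at day 5 against 0.0498 and 0.0591 at day 2. In this comparison 40.8% of tested genes fell and 14.8% rose, so calls in either direction were common. The other 7 did not pass the threshold.

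**Figure D1:**
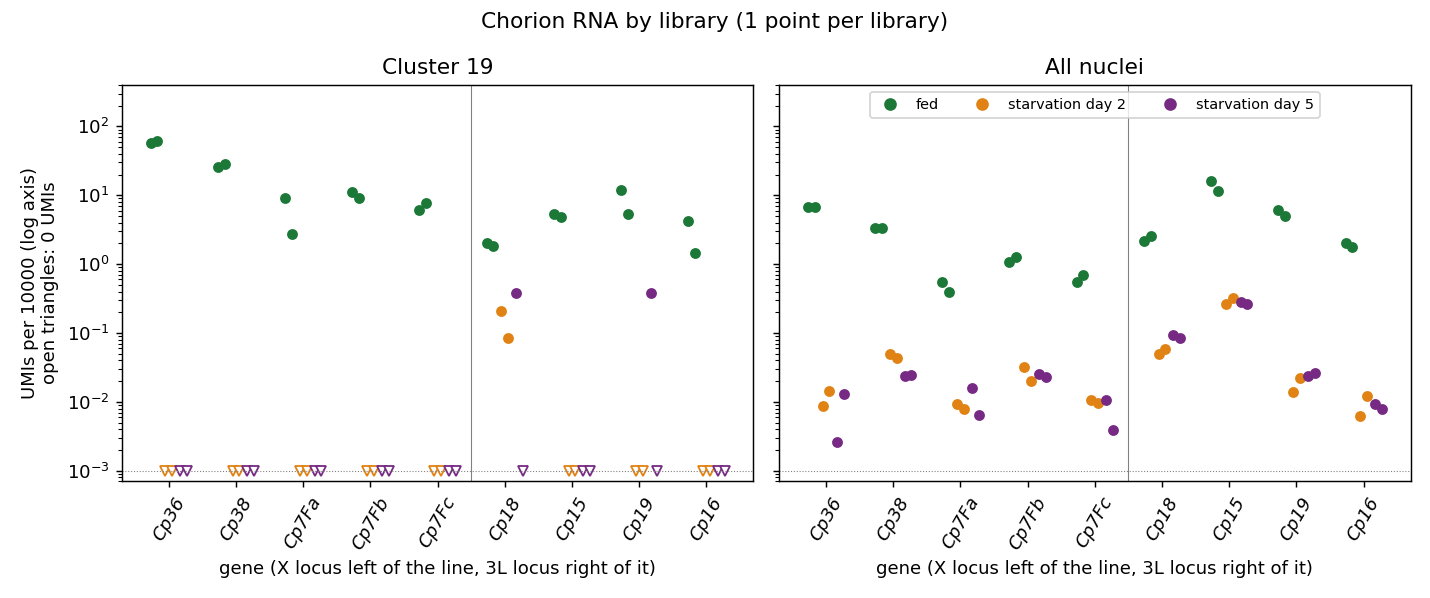
UMIs per 10000 of each chorion gene in cluster 19 (left) and over all nuclei (right), 1 point per library, on a log axis, with open triangles for 0 UMIs. Over all nuclei the fed libraries lie above the starved libraries for all 9 genes, and in cluster 19 nearly all starved values are 0.

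What remained in starved flies had another make-up. *Cp15* made up 61.2% of chorion UMIs at day 2 and 58.3% at day 5, against 38.8% in fed flies. *Cp18* made up 11.5% and 18.9%, against 6.57% in fed flies. *Cp36* dropped to 2.46% and 1.66%, against 18.5%, and *Cp19* to 3.75% and 5.25%, against 15.3%. The 5 X members together held 21.6% at day 2 and 15.7% at day 5, against 34.0% in fed flies.

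In fed flies chorion RNA was found in nearly every nucleus of the body. Of the fed nuclei, 1.06% had 0 chorion UMIs, 84.9% had 1 to 9 and 13.7% had 10 to 49. Of the starved nuclei, 95.3% had 0. Indirect flight muscle nuclei (cluster 0), which do not make eggshell, had a *Cp15* UMI in 85.6% of fed nuclei (exact 95% interval 84.6 to 86.6, median depth 1062 UMIs). Fat body nuclei (cluster 3) had one in 87.7% (85.9 to 89.4, median depth 3961 UMIs). Follicle nuclei of cluster 4 stood at 85.9% (83.8 to 87.7, median depth 2270 UMIs), within the interval of muscle. Thinned to 1000 UMIs per nucleus, the shares were 60.3% in cluster 4, 81.4% in muscle and 44.7% in fat body, with 4, 1920 and 3 shallower nuclei left out.

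The amount per nucleus varied less than depth did. In 21 clusters (all but 10, 12, 15, 19 and 24) the 9 genes together had between 4.98 and 8.16 UMIs per fed nucleus, while median depth spanned 831 to 6228 UMIs, a ratio of 7.49. *Cp15* ranged over 1.89 to 3.39 and *Cp36* over 0.834 to 1.29 UMIs per nucleus. The rank correlation of the *Cp15* value with depth was 0.55 across these 21 clusters, which share their libraries.

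The mix of members was alike in these clusters as well. *Cp15* made up 38.0 to 42.8% of chorion UMIs, *Cp19* 15.1 to 18.3%, *Cp36* 14.9 to 19.7% and *Cp38* 7.17 to 10.4%. The X members together made up 26.1 to 32.0%. A level at this height, in this mix, is read here as background and not as expression.

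**Figure D2:**
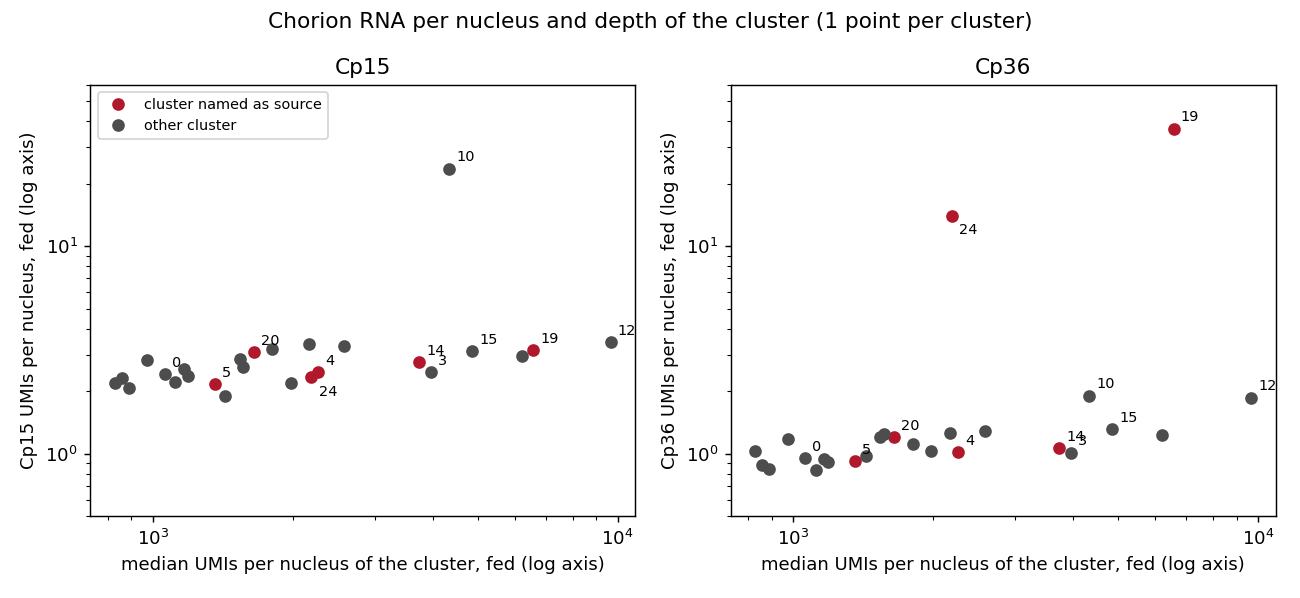
UMIs per fed nucleus of Cp15 (left) and Cp36 (right) against the median UMIs per nucleus, 1 point per cluster, both axes log. Cluster 10 stands above the rest for Cp15 and clusters 19 and 24 for Cp36. The other 23 clusters span 1.89 to 3.47 and 0.834 to 1.86 UMIs per nucleus, with rank correlations with depth of 0.64 and 0.67.

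Clusters 4 and 5 (annotated follicle cell), 14 (follicle cell St. 9+) and 20 (annotated as epidermal cells of the abdomen) lay at this background. Clusters 4, 5 and 14 had 2.47, 2.18 and 2.77 *Cp15* UMIs per fed nucleus, against a median of 2.56 over the 23 clusters other than 10, 19 and 24. Cluster 20 was at 1.21 times that median. For the 9 genes together, the ratios of clusters 4, 5, 14 and 20 to the same median were 1, 0.866, 1.08 and 1.20. These clusters are themselves among the 23 and among the background clusters above. Cluster 4 is the median for the 9 genes, which fixes its ratio at 1. Clusters 4, 5, 14 and 20 had 6.28, 5.44, 6.76 and 7.55 chorion UMIs per fed nucleus. Muscle (cluster 0) had 5.78 and fat body (cluster 3) 6.18. Follicle markers, 11 genes, summed to 82.6, 71.4 and 79.2 UMIs per 10000 in clusters 4, 5 and 14, against 311 in cluster 19. Clusters 10 and 24 had 78.7 and 75.3, both above cluster 5. In cluster 14 *Fas3* alone gave 56.2. In cluster 20 they summed to 29.9, rank 14 of 26, while 6 muscle markers summed to 379. A chorion signal of their own above the background was not detectable in these clusters at this depth. Members tested in them entered through the fed libraries alone, save *Cp15* in cluster 5, which reached the filter in 1 starved library and needed a fed one. The calls in these clusters are therefore given without weight. All 9 members fell at both times in clusters 4 (1.97% and 10.5% of tested genes fell) and 5 (1.26% and 12.1%), and 6 fell in clusters 14 (2.37% and 7.73%) and 20 (0.654% and 4.83%).

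Cluster 19 was the main site of the X genes. It is annotated as stalk follicle cell, and it had the highest sum of follicle markers of all clusters, led by vitelline membrane genes. It held 117 and 106 fed nuclei. *Cp36*, a major structural protein of the chorion, had 36.8 and 37.2 UMIs per nucleus in the fed libraries, 35.8 times the median of the other clusters. *Cp38*, its neighbour in the genome, had 16.5 and 17.2, which was 30.5 times that median.

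The *Cp7F* genes showed the same concentration. *Cp7Fb* had 7.13 and 5.53 UMIs per fed nucleus of cluster 19, *Cp7Fc* 3.97 and 4.70, and *Cp7Fa* 5.81 and 1.62. Their ratios to the median of the other clusters were 52.2, 66.7 and 69.2. *Cp7Fa* was the least even, with the first fed library well above the second.

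The 3L genes stood less far above background in cluster 19 than the X genes. *Cp19* had 7.69 and 3.25 UMIs per fed nucleus (5.08 times the median of the other clusters) and *Cp16* 2.76 and 0.877 (4.67 times). *Cp18* had 1.29 and 1.08 (2.77 times). *Cp15* had 3.40 and 2.90, only 1.24 times that median, although cluster 19 was among the deepest clusters with a median of 6588 UMIs per fed nucleus. The X members made up 85.3% of chorion UMIs in fed cluster 19, against 26.1 to 32.0% in the 21 background clusters.

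**Figure D3:**
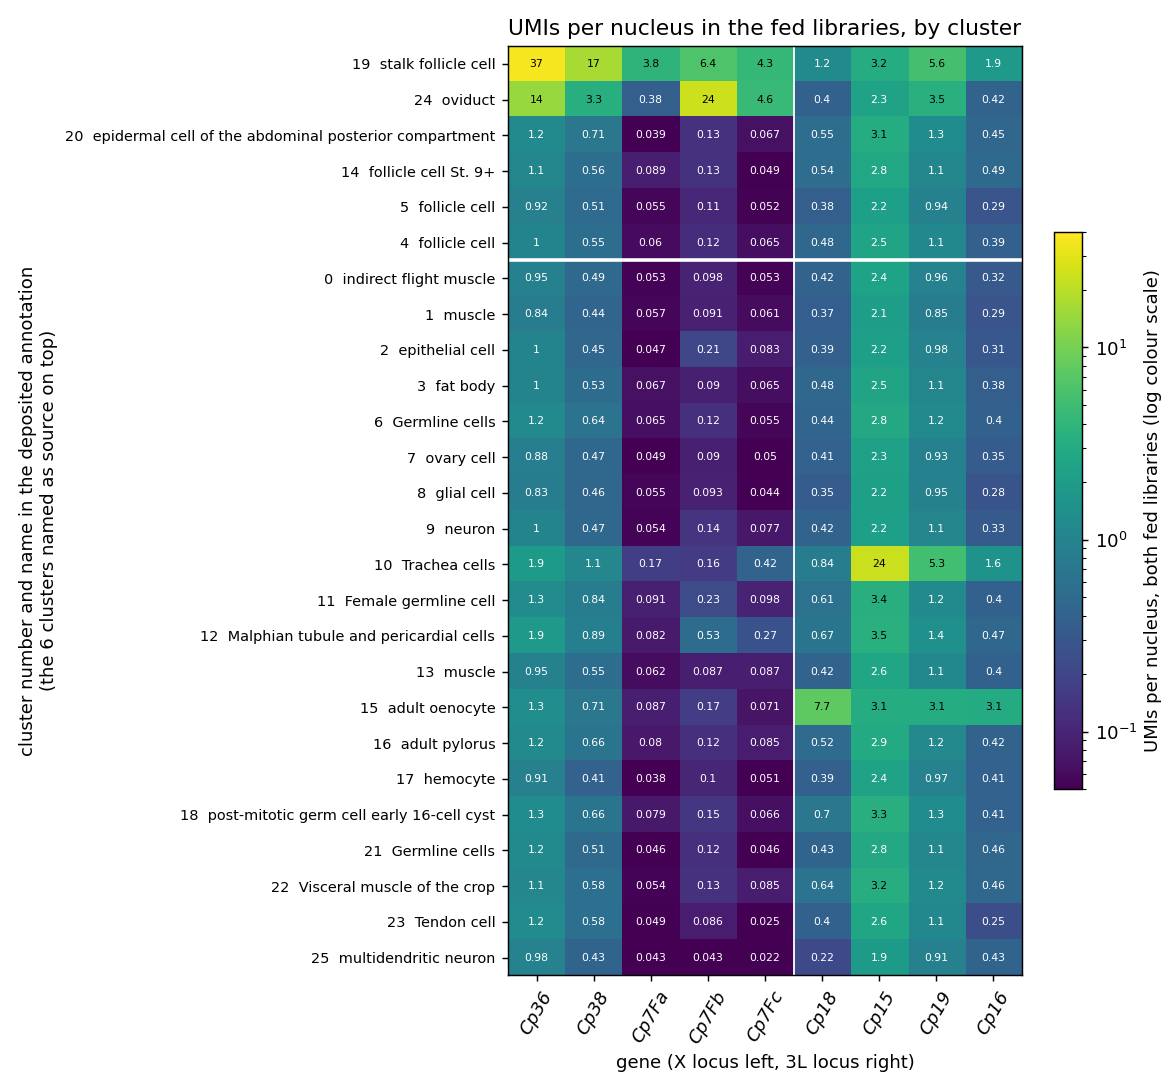
UMIs per nucleus of the 9 genes in the fed libraries (columns) in all 26 clusters (rows), printed in each cell on a log colour scale. Clusters 19 and 24 stand out for the X genes, cluster 10 for Cp15 and Cp19 and cluster 15 for Cp18, while the remaining rows look alike.

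Starved nuclei of cluster 19 had almost no chorion RNA. *Cp36* had 0 UMIs in all 4 starved libraries, against 57.0 and 62.0 UMIs per 10000 in fed flies. With a floor of 3 UMIs over both libraries of a condition, it was at least 422-fold lower at day 2 and at least 74.2-fold lower at day 5. *Cp38* was at least 192-fold and at least 33.8-fold lower. All 9 genes together left 3 UMIs at day 2, all *Cp18*, and 2 at day 5, 1 each of *Cp18* and *Cp19*.

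Few nuclei stand behind these zeros. Cluster 19 held 41 and 45 nuclei at day 2, and 12 and 4 at day 5. For *Cp36*, 0 of 86 nuclei at day 2 allows a share of nuclei with a UMI of up to 3.49% (3 nuclei), and 0 of 16 at day 5 up to 18.8%, against 72.6% (66.3 to 78.4) of fed nuclei. Median depth was 2151 UMIs at day 2 and 2151.5 at day 5, against 6588 in fed nuclei. In fed muscle nuclei of cluster 0, a reading of background at a median of 1062 UMIs, the share was 57.4%. Thinned to 1000 UMIs, it was 33.2% in fed cluster 19 and 52.5% in fed muscle (0 and 1920 nuclei left out), so the share of nuclei with a UMI does not set cluster 19 above background, and the level per nucleus does. The fitted log2 difference of *Cp36* was -10.30 (SE 0.56, adjusted p = 0.0001 in limma) at day 2 and -7.68 (SE 0.56, adjusted p = 0.00053) at day 5, values that depend on the 0.5 added to sums of 0. In this cluster 4.57% and 4.8% of tested genes fell, and 4.72% and 8.08% rose.

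All 9 members passed the filter in cluster 19 through the fed libraries alone, so they had to differ and no count is drawn from them. The share of nuclei in cluster 19 was itself lower at day 5, by 2.53 on the log2 scale (adjusted p = 0.017 in limma over 26 clusters). Without fed replicate 1 the adjusted p was 0.086, and without fed replicate 2 it was 0.075. At day 2 the difference was -0.95 (adjusted p = 0.24).

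Within cluster 19 a small group of nuclei carried most of the chorion RNA. A threshold of 50 chorion UMIs per nucleus, set after the values were seen, marked 72 nuclei in the series, 45 and 26 in the fed libraries and 1 at day 5. Near it, 11 fed nuclei had 40 to 49 UMIs and 2 had 50 to 59. These 71 fed nuclei are 0.352% of fed nuclei and held 23.7% of fed chorion UMIs. For *Cp7Fc* they held 55.1%, for *Cp7Fb* 51.8%, for *Cp7Fa* 41.8%, for *Cp36* 32.3% and for *Cp38* 28.3%. For *Cp15*, *Cp16*, *Cp19* and *Cp18* they held 19.6, 17.7, 16.0 and 14.7%.

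Of these 72 nuclei, 25 belonged to cluster 19, 13 and 12 of the fed libraries. In 21 of the 25, *Cp36* was the leading member, with 338 to 1338 chorion UMIs per nucleus and 44.7 to 66.3% of them from *Cp36*. In 3 nuclei *Cp19* led and in 1 *Cp7Fb*. None of the 25 had 10 or more *Cp15* UMIs, whereas 24 had 10 or more *Cp36* UMIs. The other 198 fed nuclei of cluster 19 had 1.63 *Cp36* and 3.25 *Cp15* UMIs each, against up to 1.29 and 3.39 in the background clusters. All members but *Cp15* lay above the range of the 21 background clusters in these nuclei, with *Cp7Fb* at 1.89 (background up to 0.234) and *Cp19* at 2.05 (up to 1.30).

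The chorion-rich nuclei of cluster 19 differed from the rest of their cluster in other genes. *Vm34Ca*, a vitelline membrane protein gene, had 14.6 UMIs per 10000 in them and 151 in the rest. The nuclear receptor gene *ftz-f1* had 2.02 against 107, the repressor gene *ttk* 9.66 against 69.6, and the adhesion gene *Fas3* 5.36 against 48.6. *Femcoat*, an eggshell gene, had 13.3 against 0.0333, but 24% of the rich nuclei had a UMI of it, and of its UMIs in fed cluster 19, 236 were in the first library and 19 in the second. *CG33223*, the gene around the X locus, had 7.22 against 1.05. These values are descriptions, since the nuclei were chosen by their chorion UMIs.

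**Figure D4:**
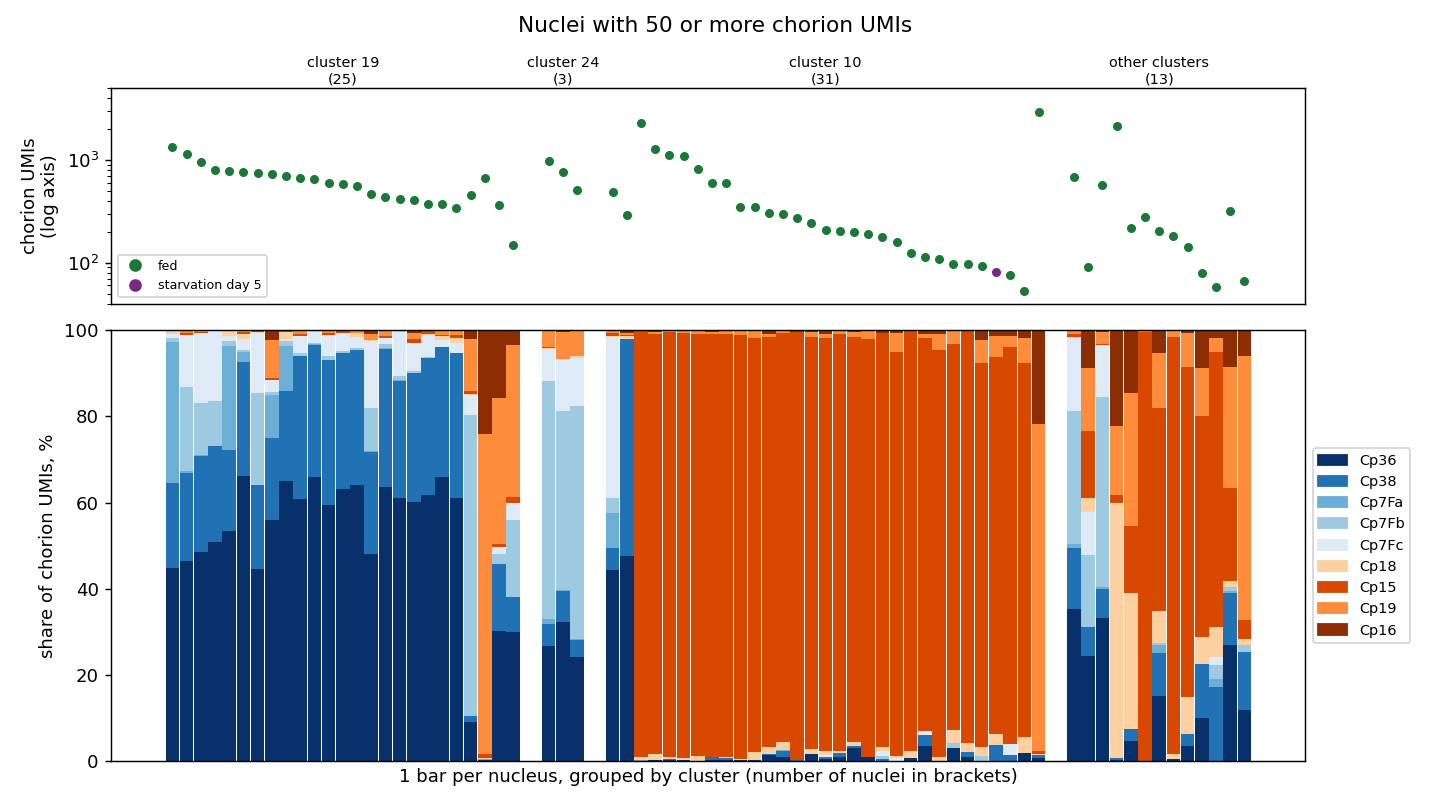
Chorion UMIs (top, log axis) and their split among the 9 genes (bottom, percent) in the 72 nuclei with 50 or more chorion UMIs, 1 bar per nucleus, grouped by cluster. Nuclei of cluster 19 are mostly Cp36 and Cp38, those of cluster 24 Cp7Fb, and those of cluster 10 almost wholly Cp15.

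In cluster 24 (annotated oviduct), 3 nuclei accounted for the chorion signal. The cluster had 12.1 and 34.5 *Cp7Fb* UMIs per fed nucleus, 195 times the median of the other clusters. Of its 2533 fed chorion UMIs, 2262 were in 3 of 48 nuclei, 1 and 2 of the fed libraries, each led by *Cp7Fb* with 41.5 to 55.3%. In the other 45 nuclei *Cp7Fb* had 0.0444 UMIs per nucleus, *Cp36* 0.933 and *Cp15* 2.44, all within the background range. *Cp7Fb* did not reach the filter in this cluster and was not tested. The 4 members tested, *Cp36*, *Cp38*, *Cp15* and *Cp19*, entered through the fed libraries alone. These 4 fell at both times, where 2.94% and 7.66% of tested genes fell, and nothing is read from that count.

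Of the oviduct markers, *Oamb* and *Octbeta2R*, both octopamine receptor genes, were looked at in those 3 nuclei, and *abd-A* and *Hand* were not. The 3 nuclei had 163 UMIs per 10000 of *Vm34Ca* and 0 of both receptor genes. The other 45 had 6.53 of *Vm34Ca*, 15.8 of *Oamb* and 75.7 of *Octbeta2R*.

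*Cp15* was concentrated elsewhere, in cluster 10. This cluster is annotated as trachea, but 3 tracheal markers (*btl*, *trh*, *Gasp*) summed to 0.947 UMIs per 10000 there, rank 4 of 26. A list of 5 genes of the corpus luteum, the follicle cells left behind after ovulation (*Oamb*, *Mmp2*, *Ilp8*, *Hr39*, *Femcoat*), summed to 84.6, the highest of all clusters. Most of that sum was *Ilp8* (52.0) and *Mmp2* (22.1). Of the 5, only *Ilp8* was highest in cluster 10. *Mmp2* was higher in cluster 25 (28.1) and *Oamb* (8.78) in cluster 24 (12.9), while *Hr39* (1.20) and *Femcoat* (0.461) were higher in other clusters. Cluster 10 also ranked 1 for 4 stalk and polar cell markers (60.1, of which *Fas3* 59.2) and 2 for 4 oviduct markers (82.9, of which *Octbeta2R* 73.6). For the 11 follicle markers it ranked 4 (78.7, again mostly *Fas3*). The cluster is called by its number here. It was counted with the clusters outside the ovary, as its annotation has it.

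In fed flies cluster 10 had 34.3 and 11.6 *Cp15* UMIs per nucleus, against 2.71 and 2.21 in all other clusters together. At day 2 it had 1.55 and 1.75, against 0.0182 and 0.0222. At day 5 it had 2.17 and 2.04, against 0.0135 and 0.00966. In every library cluster 10 lay above the rest, and the ratio between them was wider in the starved libraries (78.7 to 211) than in the fed ones (12.7 and 5.24).

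Before thinning, the share of nuclei with a *Cp15* UMI followed the same order. It was 95.6 and 92.0% of cluster 10 nuclei in the fed libraries, against 87.2 and 82.3% elsewhere. At day 2 it was 47.8 and 57.4%, against 1.61 and 1.76%, and at day 5 47.4 and 54.2%, against 0.622 and 0.813%. Thinned to 1000 UMIs per nucleus, which left out 7 shallower nuclei at day 5 and none before, the shares in cluster 10 were 61.6% fed, 26.6% at day 2 and 38.2% at day 5. Muscle nuclei of cluster 0 thinned likewise gave 81.4%, 2.03% and 0.447%, with 1920, 1043 and 1428 nuclei left out. At equal depth the fed share of cluster 10 thus lay below that of muscle, while its starved shares lay above.

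**Figure D5:**
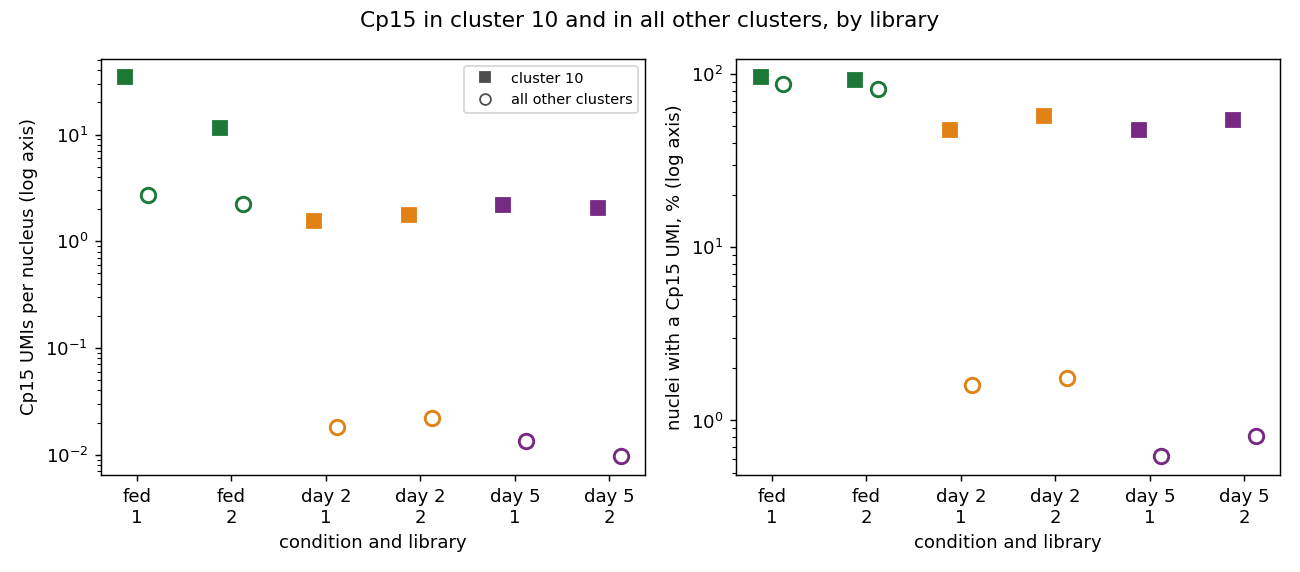
Cp15 UMIs per nucleus (left) and percent of nuclei with a Cp15 UMI (right) in cluster 10 (squares) and in all other clusters (open circles), 1 pair per library, log axes. In starved libraries 47.4 to 57.4% of the nuclei of cluster 10 have a Cp15 UMI, against 0.622 to 1.76% in the other clusters.

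Most of the *Cp15* RNA left after starvation therefore lay in 1 cluster. Cluster 10 held 67.7 and 69.3% of all *Cp15* UMIs at day 2 and 76.7 and 81.6% at day 5, against 29.1 and 12.8% in fed flies, from 2.01 to 3.13% of the nuclei. Without cluster 10, the level of *Cp15* in the clusters outside the ovary was 0.0823 and 0.109 UMIs per 10000 at day 2 and 0.0411 and 0.0458 at day 5, against 12.4 and 11.5 in fed flies.

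The level of *Cp15* fell within cluster 10. Its level was 4.47 and 4.55 UMIs per 10000 at day 2 and 7.81 and 7.79 at day 5, against 72.9 and 26.5 in fed flies. The log2 difference was -3.28 (SE 0.36, adjusted p = 0.003 in limma) at day 2 and -2.49 (SE 0.36, adjusted p = 0.0031) at day 5. Without the chorion-rich nuclei the fed values were 11.7 and 10.6, against 4.47 and 4.55 at day 2 and 4.88 and 7.79 at day 5. The fed values also hold the fed background, which was 2.46 *Cp15* UMIs per nucleus in all other clusters. Without the rich nuclei cluster 10 had 1.66 *Cp15* UMIs per nucleus at day 2 and 1.66 at day 5, against 4.98 in fed flies, and how much of that difference is background was not tested.

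Other members fell less far in cluster 10 than over all nuclei. *Cp18* fell by 1.61 (adjusted p = 0.0092) at day 2 and by 0.84 (adjusted p = 0.041) at day 5. *Cp36* fell by 4.54 (adjusted p = 0.0093) and 4.66 (adjusted p = 0.0028). *Cp7Fa* and *Cp7Fb* did not pass the threshold at either time. Without the rich nuclei, fed cluster 10 had 1.26 *Cp36* and 0.711 *Cp18* UMIs per nucleus, against up to 1.29 and 0.705 in the 21 background clusters. How much of the fall of these members is loss of background was not tested. Of the 9 members 6 fell at day 2, where 1.21% of tested genes fell, and 7 at day 5, where 5.85% did, but *Cp7Fa* and *Cp7Fc* entered the test through the fed libraries alone. *Cp36* and *Cp16* reached the filter in 1 starved library and needed a fed one. The share of nuclei in cluster 10 was lower at day 5 by 0.51 on the log2 scale (adjusted p = 0.018).

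Chorion-rich nuclei of cluster 10 differed from those of cluster 19. There were 22 and 8 in the fed libraries and 1 at day 5, and 28 of the 31 were led by *Cp15*, with up to 2279 chorion UMIs and 86.8 to 99.3% of them *Cp15*. The nucleus at day 5 had 81 chorion UMIs, and it was the only starved nucleus in the series past 50. Of the 30 fed ones, 7 had 0 *Cp36* UMIs. A further nucleus led by *Cp19* held 2956 chorion UMIs, the most of any nucleus.

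The other 13 rich nuclei were scattered over clusters 2, 4, 6, 7, 11, 12 and 15. In cluster 15, adult oenocytes, 1 nucleus with 2133 chorion UMIs, 59.2% of them *Cp18*, raised the level of *Cp18* to 17.9 UMIs per nucleus in the second fed library, against 0.910 in the first. All 5 in cluster 6 came from the first fed library.

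X members other than *Cp36* had a further site in starved flies, cluster 11, annotated as female germline. *Cp38* had 0.538 and 0.615 UMIs per 10000 there at day 2 and 0.165 and 0.367 at day 5, against 2.40 and 2.47 in fed flies. Cluster 11 held 84 of the 150 *Cp38* UMIs left at day 2, 35 of the 85 *Cp7Fb* UMIs, 11 of the 33 *Cp7Fc* UMIs and 5 of the 28 *Cp7Fa* UMIs. Of the 38 *Cp36* UMIs left at day 2, 4 were in cluster 11 and 26 in cluster 10. At day 5 cluster 10 held 9 of the 12 left. *Cp15* had 10 UMIs in cluster 11 at day 2. The X members made up 89.1% of chorion UMIs of this cluster at day 2 and 93.2% at day 5, against 31.0% in fed flies. *CG33223*, whose introns hold the X members, had 1.68 and 1.26 UMIs per 10000 in cluster 11 at day 2 and 0.860 and 1.14 at day 5, against 1.20 and 1.56 in fed flies. Reads of the X members and of these introns cannot be told apart here.

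The fed libraries differed from each other mainly through rich nuclei. Over the clusters outside the ovary, *Cp15* had 18.2 and 12.7 UMIs per 10000 in the fed libraries, and 12.3 and 11.4 without the nuclei past 50 UMIs. Likewise *Cp18* had 2.15 and 2.98 with these nuclei and 2.12 and 2.08 without them.

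Pools of clusters gave the same direction throughout. In the clusters outside the ovary all 9 members fell at day 2 (background 8.03% of tested genes) and at day 5 (22.7%), with log2 differences from -4.70 to -8.43 at day 2 and from -4.70 to -9.56 at day 5. In the 15 clusters outside the sources that were tested one by one, 111 pairs of cluster and member fell at day 2 and 112 at day 5, against 2.58% and 9.98% of all pairs of cluster and gene. Of the 123 pairs tested, 107 entered through the fed libraries alone and had to differ, so nothing is read from these counts. In the pool outside the ovary *Cp36*, *Cp7Fa*, *Cp7Fc* and *Cp16* reached the filter in 1 starved library and needed a fed one. All 9 fell in that pool without cluster 10 as well. In the 6 clusters taken as sources the log2 differences ran from -6.13 to -11.89 at day 2 and from -5.41 to -11.45 at day 5 (background 5.49% and 15.5%), but 8 of the 9 members entered through the fed libraries alone. In the other ovary clusters that was so for 6 members (background 3.01% and 11.6%).

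For no member was the fall firmly shown to differ between the source clusters and the clusters outside the ovary. The test of that difference passed the threshold for *Cp7Fc* only, with -4.73 (SE 0.44, adjusted p = 0.031 in limma) at day 2 and -2.39 (SE 0.44, adjusted p = 0.042) at day 5, where 0.522% and 3.7% of tested genes were called in that direction. *Cp7Fc* entered through the fed libraries alone in the source clusters, where its starved sums are 0, and 0 members passed at either time with a replicate block, with no filter or without the chorion-rich nuclei. For *Cp36* the difference was -3.47 (SE 1.51, adjusted p = 0.39) at day 2.

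Genes of the same process were followed as lists. In the source clusters, 16 of 21 tested vitelline membrane and other eggshell genes fell at day 2 and 18 at day 5, and 0 rose. Of all tested genes 5.49% and 15.5% fell, and 6.83% and 11.1% rose. Of the 21 genes, 8 entered through the fed libraries alone, all 8 among those that fell. Their median log2 difference was -5.80 and -6.95, against 0.13 and -0.09 over all tested genes. With genes that had 0 UMIs set at the bound of 3 UMIs, the medians were -5.80 and -5.88.

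In the pooled source clusters at day 2, *Vm26Ab* and *Vm34Ca* lay closer to their own fed levels than *Cp36* did. *Vm26Ab* had 2.17 and 2.80 UMIs per 10000 in the source clusters at day 2 and 0.0230 and 0.0898 at day 5, against 15.2 and 13.4 in fed flies. *Vm34Ca* had 0.357 and 0.989 at day 2 and 0 in both day 5 libraries, against 33.2 and 33.3 in fed flies. *Cp36* in the same clusters had 0.00728 and 0 at day 2 and 0 in both day 5 libraries, against 14.6 and 15.4 in fed flies. In cluster 19 alone, *Vm34Ca* and *Cp36* both had 0 UMIs at day 2. *Vm26Ab* had 0.211 and 0.0841 UMIs per 10000 there, against 32.2 and 31.4 in fed flies.

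Replication genes tied to chorion amplification were called at about the share of all genes. Of 25 tested amplification genes, 1 fell at day 2 and 4 fell and 1 rose at day 5 in the source clusters, against 5.49% and 15.5% of all tested genes that fell, with medians of 0.22 and -0.32. In cluster 19, *dup*, the Cdt1 gene that licenses origins, fell by 2.56 (SE 0.60, adjusted p = 0.037) at day 2, from sums of 3 and 4 UMIs against 185 and 125 in fed flies. At day 5 it had 0 UMIs in both libraries. *dup* entered the test through the fed libraries alone, so its call is given without weight. *E2f1*, a cell cycle transcription factor gene, fell there by 1.26 (adjusted p = 0.045) at day 2 and also at day 5 (adjusted p = 0.02). These were the 2 of 11 tested amplification genes that fell in that cluster, where 4.57% of all tested genes fell at day 2 and 4.8% at day 5. Of the 11, 7 entered through the fed libraries alone.

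Of 20 tested follicle cell regulators, 8 fell and 4 rose at day 2 and 9 fell and 6 rose at day 5 in the source clusters, with medians of -0.11 and -0.02, where 5.49% and 15.5% of all tested genes fell and 6.83% and 11.1% rose. In cluster 19 *ftz-f1* fell by 5.63 (adjusted p = 0.00014) and *ttk* by 2.74 (adjusted p = 0.00039) at day 2. *N*, the Notch receptor gene, rose by 2.37 (adjusted p = 0.00068). The ecdysone receptor gene *EcR* and the zinc finger gene *br* had -0.10 (adjusted p = 0.86) and -0.69 (adjusted p = 0.19). Of 6 tested cell death and ovulation genes, 1 rose and 0 fell at day 2, and 1 rose and 1 fell at day 5, against the same shares. The gene that rose at both times was *hid*, a cell death inducer, by 0.51 (adjusted p = 0.012) and 1.58 (adjusted p = 8e-06).

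The genes whose levels were most like the summed chorion level, over 138 pairs of cluster and library and among 10001 genes, were eggshell genes for the greater part. In order of Pearson correlation they were *Vm34Ca* (0.94), *Vm26Aa* (0.93), *Vm32E* (0.93), *CG13083* (0.90), *Vm26Ab* (0.87), *dec-1* (0.86), *CG32642* (0.86), *Femcoat* (0.84), *Vml* (0.84) and *Vm26Ac* (0.83). The pairs share libraries, and the background in fed libraries enters all of them.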

How the data were processed

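The authors counted UMIs with Cell Ranger 6.1.1 and merged the libraries after bringing them to equal read depth, and the submitters' processing notes also list Seurat and BDGP6. They deposited 1 matrix of natural log values (12925 genes, 43027 nuclei) and an annotation of clusters and libraries. The values were ln(1 + 10000 u N / (U n)), where u stands for a gene's UMIs in 1 nucleus, U for all UMIs of that nucleus, n for the gene's UMIs over all nuclei and N for the number of nuclei. This rule was worked out from the values. Solved for u, 99.98% of values came within 0.05 of an integer, and 99.64% were given back within 0.001. Because the deposited unit is a natural log, no count model was used.

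For each cluster UMIs were summed by library. After adding 0.5 to a gene's sum and 1 to the library's total, log2 UMIs per 10000 were tested with limma 3.58.1 in R 4.3.3 (lmFit, eBayes with trend) over all 6 libraries, with Benjamini-Hochberg adjustment. Testing required a UMI in 10 or more nuclei in each of 2 or more libraries. Shares of nuclei were tested on log2 shares. Intervals are exact 95% intervals, and the limit beside a count of 0 is 3 counts. Conditions follow the sample titles, although the library names of the day 2 and day 5 samples carry 5 and 7. Same-numbered libraries were not paired. Doublets were not called, and fits without the 10% deepest nuclei were tried. The script was tested on simulated data. Members and lists were chosen with earlier results of these data known. All 9 members are named, with the 10 genes most alike by Pearson correlation of log2 levels (0.1 added, genes with 200 UMIs or more). Alternatives were other filters, scalings, added counts, denominators, thinning, libraries left out and a replicate block, and, chosen after seeing the data, fits without chorion-rich nuclei or cluster 10.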

Additional observations from a re-analysis of the deposited data

Results flagged for a closer look

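For *Cp7Fc* a test of the difference within libraries, between its fall in the source clusters and that outside the ovary, passed the threshold. The log2 difference was -4.73 (SE 0.44, adjusted p = 0.031 in limma) at day 2 and -2.39 (SE 0.44, adjusted p = 0.042) at day 5. In the source clusters *Cp7Fc* had 0 UMIs in all 4 starved libraries, against 1.47 and 2.01 UMIs per 10000 in fed flies, so it was at least 327-fold lower at day 2 and at least 108-fold lower at day 5. Outside the ovary it was 37.8-fold lower at day 2 (counting interval 24.9 to 60.6) and 61.9-fold lower at day 5 (31.3 to 144). *Cp7Fc* entered the test in the source clusters through the fed libraries alone, the fitted values depend on the 0.5 added to sums of 0, and 0 members passed at either time with a replicate block, with no filter or without the 72 chorion-rich nuclei.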

How the results depend on the processing

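All 9 members fell over all nuclei and outside the ovary at both times under every alternative that was run, with each library left out in turn (lowest and highest count 9). In the pools and clusters where members entered through the fed libraries, leaving out a fed library removed them from the test by construction, so the counts ran from 0 to 9 in clusters 4 and 19, from 1 to 9 in cluster 5 and the pooled source clusters, from 2 to 9 in the other ovary clusters, from 0 to 6 in clusters 14 and 20 and from 0 to 4 in cluster 24. Pairs of cluster and member that fell outside the source clusters numbered 111 at day 2 (7 to 119 with a library left out) and 112 at day 5 (10 to 119).

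With no filter, 8 and 7 members fell in cluster 24 at day 2 and day 5, in place of 4. Without chorion-rich nuclei, 5 fell in cluster 19 at day 5, in place of 8. Members whose fall differed between the source clusters and those outside the ovary numbered 1 at each time. At day 2 they numbered 4 with the mean deposited value, 2 with 2 added to each sum, 3 with only the 4 libraries compared, 0 with no filter, 0 without chorion-rich nuclei and 0 to 3 with a library left out. At day 5 they numbered 4 with the mean deposited value, 0 with no filter, 0 with only the 4 libraries, 0 without chorion-rich nuclei and 0 to 5 with a library left out. Clusters with a changed share of nuclei numbered 7 at day 2 (13 with only the 4 libraries, 0 to 13 with a library left out) and 16 at day 5 (8 to 16).

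The replicate number in the titles did not pair libraries (correlations of deviations -0.020, 0.0031 and -0.040). With it as a replicate block, 9 members fell over all nuclei at both times, 0 in place of 1 differed between source and outside clusters, and 15 clusters changed in share at day 5.

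The log2 share of nuclei reversed in 3 cases, none past the threshold. For cluster 24 at day 2 it was 0.16, and -0.14 to 0.47 with a library left out (lowest without day 2 replicate 1). For cluster 5 at day 5 it was 0.021, and -0.16 over nuclei outside the ovary and -0.047 to 0.090 with a library left out (lowest without day 5 replicate 2). Among single values, 638 kept their call, 18 lost it and 11 gained it. Cause was not tested for any of these. With 16 nuclei at day 5, cluster 19 sets a low bound on any fold, and 2 libraries a condition limit every test.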
